A study of Mus musculus with 4 samples.

Results

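The genes described here encode the actin machinery that macrophages use to engulf particles, and they were measured by bulk RNA sequencing of macrophages with and without a floxed-allele deletion of G3bp1. The list holds 48 genes, given by name, and 47 of them had a row among the 34745 genes of the count table. Diaph1 was not analysed here. All 47 passed the filter on low counts, which left 12418 genes in the test. The controls, labelled WT, were per the study's text macrophages of G3bp1 f/f mice, in which both copies of G3bp1 carry loxP sites. The other group, labelled KO and G3bp1mac-/-, came from such mice crossed to Lyz2-Cre, so the floxed alleles are shared by all samples and the KO group alone carries Cre. The Lyz2 promoter drives Cre across the myeloid lineage, including monocytes and granulocytes. The study's text describes the cells as bone marrow-derived macrophages (BMDMs), the labels describe them as macrophages grown in DMEM with serum, and neither gives a treatment. The study's methods give an age for purchased wild-type mice and none for the floxed mice. Each genotype had 2 libraries, numbered 1 and 2 by the labels. The labels do not say that these came from separate animals, so p-values measure only the spread between these libraries, which may be technical.

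Engulfment begins when a receptor on the macrophage touches its target, and exchange factors of the Vav and Dock families then load small GTPases with GTP. Active Cdc42 and Rac switch on WASP and the WAVE complex, which in turn activate the Arp2/3 complex, and this complex seeds branched filaments that push the membrane around the target as a phagocytic cup. Profilin and Ena/VASP proteins feed filament growth, cofilin and coronin take filaments apart, ERM proteins tie filaments to the membrane, class I myosins bend the membrane, and talin, vinculin and kindlin-3 connect filaments to integrins. G3BP1 is an RNA-binding scaffold of stress granules, and the study asked how its loss affects the clearance of dying cells by macrophages. The comparison of KO with WT bears on whether transcripts of the engulfment machinery differ between these genotypes in cells with no stated treatment.

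The libraries held between 16724241 and 19747909 counts, and 3 counts in a library equal 0.152 to 0.188 CPM (counts scaled to the library total and a TMM factor). The listed genes took between 1.9% and 2.18% of a library's counts. Macrophage marker genes summed to between 21100 and 26400 CPM in the 4 libraries, and none was at 0. Most of the sum was Lyz2 (16900 to 21900 CPM) and Cd68 (2890 to 3300 CPM), and each of the others had between 17.7 and 816 CPM. G3bp1 itself had counts of 1691 and 2875 in WT, and of 1307 and 2296 in KO, a log2 fold change of -0.61 (standard error 0.40, n = 2 per group, adjusted p = 0.904 in edgeR, where the test is the quasi-likelihood one with Benjamini-Hochberg adjustment here and below), and the groups overlapped. Compared by number, KO lay below WT in each, by -0.57 (number 1) and -0.63 (number 2) on the log2 scale. Counts per gene do not show whether the deleted exons were covered, so they are a weak check of the labels. Stromal markers summed to 75.6 and 89.1 CPM in WT against 332 and 305 in KO, with 10 of 10 above 0 on the log2 scale, and smooth muscle markers to 7.27 and 7.03 against 32.4 and 35.3. Neutrophil markers summed to 30 and 25.7 CPM in WT and 9.23 and 12 in KO, with 2 of 10 at 0 in every library. B cell markers summed to 22.3 and 23.2 against 12 and 11.4. Mast cell and basophil markers summed to 34.5 and 37.2 against 18.9 and 22.9, with 1 of 7 at 0 throughout. T and NK cell markers summed to 3.33 and 3.51 against 2.15 and 2.24, and dendritic cell markers to between 4.5 and 7.78 in all 4. The part of these other cells in the values below was not tested, and in bulk RNA fewer cells of a type and less RNA per cell cannot be told apart.

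Across the 47 genes, the fitted differences between KO and WT in transcripts of the actin machinery were small, and none passed the test. No member met the limits for a call (adjusted p under 0.05 in edgeR and more than 1 log2 unit in either direction), and no gene of the 12418 did either, so the background of calls was 0%. At an unadjusted p under 0.05 stood 1 member (2.13%) and 823 genes (6.63% of those tested). The DESeq2 Wald test and the edgeR exact test called 170 and 174 genes, with 0 members among them in each. The log2 fold changes of KO against WT ran from -0.61 to 0.49, and 44 of the 47 lay within 0.5 of 0. Their median was 0.009, against 0.04 over all tested genes, and 24 of 47 (51.1%) were above 0, against 54.6% of all tested genes. The median size of the difference between KO and WT within a number was 0.19 among the members, and the median size of the difference between libraries 2 and 1 within a genotype was 0.31. Over all tested genes these sizes were 0.27 and 0.36. By this measure the genotypes differed by less than libraries of 1 genotype did, for the members and for all genes.

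Arpc5 alone passed an unadjusted threshold of 0.05 in the edgeR fit across all genes. This was 1 of the 47 members (2.13%), against 6.63% of all tested genes in either direction. Among all tested genes, 1.99% reached that p with a lower level in KO. The smallest adjusted p of any member was 0.676. In 12 members (25.5%) both KO libraries lay below both WT libraries on the CPM scale, against 16.9% of all tested genes. These were Arpc1a, Arpc2, Arpc3, Arpc5, Arpc5l, Brk1, Cdc42, Cfl1, Pfn1, Coro1b, Evl and Capg, of which 5 belong to the Arp2/3 complex. Only Wasf2, Dock2, Fmnl1 and Tln1 lay above in both KO libraries, 4 of 47 (8.51%) against 20% of all tested genes. The difference between KO and WT had the same sign in number 1 and in number 2 for 27 of the 47.

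**Figure D1:**
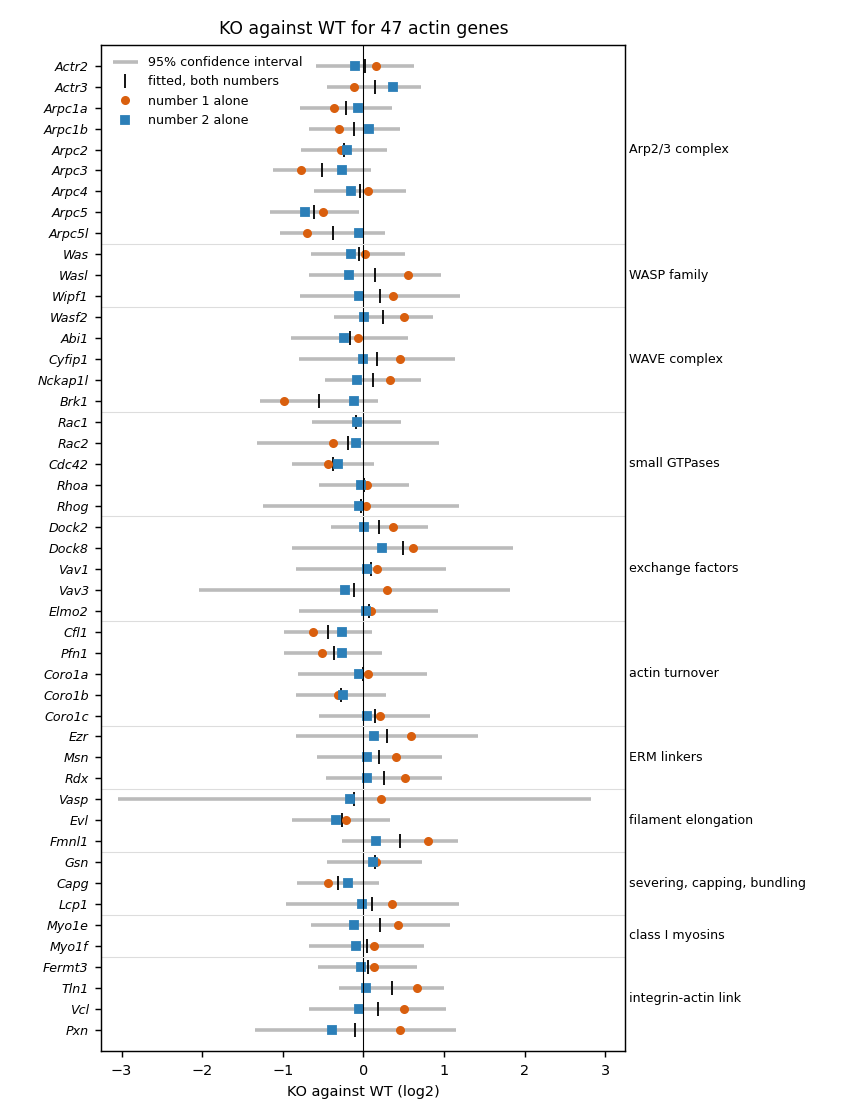
KO against WT on the log2 scale for each of the 47 genes, grouped by role. The black tick is the fitted log2 fold change over 2 libraries per genotype, the grey bar its 95% confidence interval, the circle the ratio within number 1 and the square that within number 2. The interval of Arpc5 (-1.16 to -0.05) is the only one that leaves out 0, and that of Vasp (-3.04 to 2.82) is the widest.

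The Arp2/3 complex joins the actin-related proteins Arp2 and Arp3 (Actr2 and Actr3) to 5 kinds of smaller subunit, of which ARPC1 and ARPC5 each come in a pair of isoforms. Its 9 genes were sampled at 12.5 to 261 FPKM on average, a deposited unit that divides counts by gene length and library total. Actr2 had 93.4 and 120 FPKM in WT and 122 and 118 in KO, and Actr3 had 92.7 and 81.3 against 100 and 112. Arpc2, which with Arpc4 forms the core of the complex, had the highest mean over the 4 libraries, with 266 and 271 FPKM in WT and 256 and 251 in KO. Arpc4 had 38.4 and 40.2 against 46.8 and 38.5. The deposited FPKM carry no TMM factor, so the order of libraries can differ a little from that in CPM.

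Arpc5, whose product helps to hold the complex together, gave the largest log2 fold change of all members. It had counts of 11579 and 11577 in WT, and of 9412 and 8664 in KO, or 714 and 727 CPM against 505 and 440, and the KO libraries lay below the WT libraries. The log2 fold change was -0.61 (standard error 0.22, n = 2 per group, adjusted p = 0.676 in edgeR, from 0.0891 to 1 over the other settings), a level of 65.6% of WT. The FPKM lay in the same order, with 274 and 275 in WT and 226 and 177 in KO. The gene (ENSMUSG00000008475) lies at chr1:152766542-152775597 on the plus strand of GRCm38. The ratio of KO to WT was -0.50 on the log2 scale in number 1 and -0.72 in number 2, so this gene differed about as much in each.

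Arpc3, a small subunit next to Arp3, followed with counts of 10618 and 8939 in WT, and of 7133 and 9243 in KO. In CPM these are 655 and 561 against 383 and 470, which do not overlap, and the log2 fold change was -0.51 (standard error 0.24, adjusted p = 0.842 in edgeR). Its FPKM were 154 and 131 in WT and 105 and 116 in KO. Arpc5l, the less abundant isoform of Arpc5, had counts of 1459 and 1098 in WT, and of 1035 and 1309 in KO, with a log2 fold change of -0.38 (standard error 0.26, adjusted p = 0.912 in edgeR). Nearly all of that difference came from number 1, at -0.70 on the log2 scale, and number 2 gave -0.05. Its stretch overlaps Rpl35 on the opposite strand, which had 21431 counts over the 4 libraries against 4901 for Arpc5l, and the sources do not say whether counting used the strand, so Arpc5l is uncertain.

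Arpc1a had 20.3 and 17.9 FPKM in WT and 18.5 and 18 in KO, and its more abundant partner Arpc1b had 105 and 99.2 against 99.5 and 110. For Arpc5l the FPKM were 15.3 and 11.6 in WT and 11.1 and 11.8 in KO. Of the 9 Arp2/3 genes, 7 had a log2 fold change below 0 and the median was -0.22. The median stayed between -0.29 and -0.15 in every alternative fit, including those with 1 library left out. Summed over the 9 genes, the complex had 1060 and 1050 FPKM in WT and 986 and 952 in KO, and 4820 and 4780 CPM against 3990 and 4480. On both scales both KO sums lay below both WT sums.

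**Figure D2:**
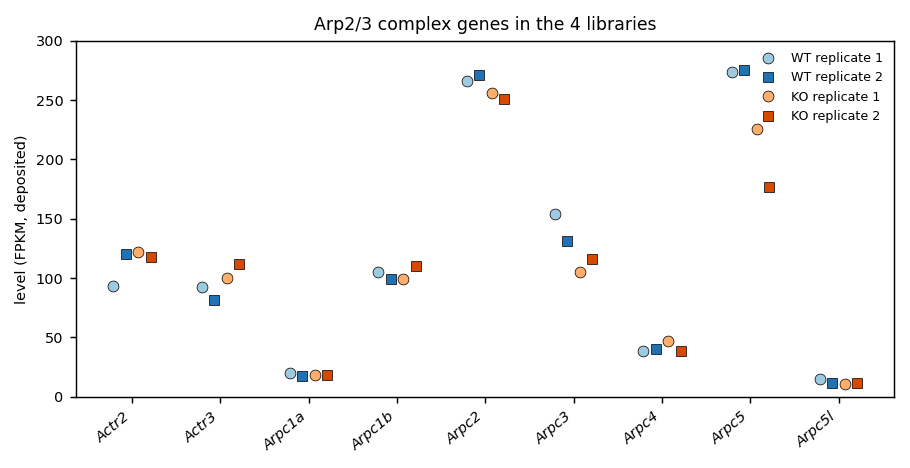
Deposited FPKM of the 9 Arp2/3 complex genes in each library, with circles for replicate 1 and squares for replicate 2, WT in blue and KO in orange. The KO points of Arpc5 (226 and 177) and Arpc3 (105 and 116) sit below their WT points (274 and 275, 154 and 131), and most other subunits overlap between genotypes.

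The activators of Arp2/3 included blood-cell and broadly expressed forms. Was, which encodes the WASP protein of blood cells, had 18.3 and 17 FPKM in WT and 21.6 and 16.1 in KO, while its broadly expressed relative Wasl averaged 1.66. Wipf1, whose product binds and stabilises WASP, averaged 4.28 FPKM. In the WAVE complex, which links Rac to Arp2/3, Nckap1l is the blood-cell form of the NCKAP1 subunit and had 104 and 130 FPKM in WT against 153 and 131 in KO. Log2 fold changes in these groups lay between -0.17 and 0.25 with the exception of Brk1, and Wasf2 was the member with both KO libraries above both WT libraries (45.8 and 56 CPM against 64.8 and 56.4).

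Brk1, the smallest WAVE subunit, had the second largest difference. Its counts were 6735 and 4873 in WT and 3919 and 5531 in KO, and in CPM these are 415 and 306 against 210 and 281. The KO libraries lay below the WT libraries, with a log2 fold change of -0.55 (standard error 0.29, adjusted p = 0.852 in edgeR). Nearly all of it came from number 1 (-0.98 on the log2 scale against -0.12 in number 2), and with a correction for gene length the log2 fold change was -0.23. With 362 and 263 FPKM in WT and 214 and 256 in KO it was also the most abundant WAVE gene per length, and it has the shortest gene length of all members, 1095 bases.

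The small GTPases were among the most abundant members, and Cdc42, which activates WASP, led them. Cdc42 had 463 and 464 FPKM in WT and 399 and 394 in KO. In counts these are 23792 and 23713 against 20166 and 23490, with a log2 fold change of -0.38 (standard error 0.20, adjusted p = 0.854 in edgeR), and the genotypes did not overlap in CPM or FPKM. Rac1, which drives the WAVE complex, was close to level at 401 and 376 CPM in WT and 376 and 355 in KO, while Rhoa, which drives contraction, ranged from 601 to 691 CPM. The blood-cell GTPase Rac2 and Rhog, which acts upstream of Rac, differed mainly between libraries 1 and 2. Their log2 fold changes of KO against WT were -0.19 and -0.03.

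Among the exchange factors, Dock2, a Rac activator of blood cells, had the highest mean over the 4 libraries, with 18.3 and 19 FPKM in WT and 27.6 and 20.3 in KO. Vav1 lay above it in both libraries numbered 2, at 20.5 and 22.4 FPKM. Dock8, which activates Cdc42, had the largest positive log2 fold change of any member, 0.49 (standard error 0.54, adjusted p = 0.962 in edgeR). Its counts were 523 and 265 in WT and 915 and 385 in KO, so the genotypes overlapped, and its log2 fold change was -0.32 without KO replicate 1 and 0.29 with a correction for gene length. Vav1, Vav3 and Elmo2 had log2 fold changes of 0.10, -0.11 and 0.07. Vav proteins activate Rac below phosphotyrosine signals, and Elmo proteins pair with Dock proteins at the cup.

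The genes of actin turnover held the most abundant member. Cfl1, encoding cofilin, which severs old filaments, had 2480 and 2520 FPKM in WT and 1880 and 2210 in KO. Its counts were 48487 and 49051 against 36018 and 50098, with a log2 fold change of -0.44 (standard error 0.22, adjusted p = 0.848 in edgeR), or -0.15 with a correction for gene length. Pfn1, encoding profilin, which hands actin monomers to growing ends, had counts of 16142 and 17574 in WT, and of 13038 and 18075 in KO, and a log2 fold change of -0.37 (standard error 0.24, adjusted p = 0.904 in edgeR). For both genes the KO libraries lay below the WT libraries in CPM (2990 and 3080 against 1930 and 2550 for Cfl1, 995 and 1100 against 700 and 918 for Pfn1), and the lower KO library was number 1. Without KO replicate 1 the log2 fold changes were -0.25 for Cfl1 and -0.19 for Pfn1, and without KO replicate 2 they were -0.66 and -0.59. Of the coronins, which help to dismantle branches, Coro1b was the one without overlap, at 289 and 287 CPM in WT and 233 and 242 in KO. Coro1a and Coro1c overlapped, with log2 fold changes of -0.01 and 0.14. The median of the 5 turnover genes was -0.28 and lay between -0.32 and -0.15 in every alternative fit.

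The ERM proteins ezrin, moesin and radixin are closely related linkers of filaments to membrane. Msn was the dominant gene with 120 and 190 FPKM in WT and 185 and 209 in KO. All 3 genes had log2 fold changes above 0, with a median of 0.26, but the direction depended on single libraries. Without WT replicate 1 the median was -0.10 and none of the 3 was above 0, and without KO replicate 2 it was 0.01 with 2 of 3 above 0. Ezr had the largest value of the family, 0.29 (standard error 0.44, adjusted p = 0.97 in edgeR). Its counts were 959 and 2023 in WT and 1661 and 2726 in KO, and the range of each genotype took in a library of the other.

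Filament elongation was represented by Vasp, its relative Evl and the formin Fmnl1, which grows straight filaments. Vasp had the highest mean level of the group and the widest interval of all members, with 12.5 and 96.4 FPKM in WT and 17.1 and 91.5 in KO. Evl lay lower in both KO libraries on the CPM scale (145 and 129 against 125 and 102). Fmnl1 lay higher, with counts of 184 and 269 in WT, and of 369 and 371 in KO, a log2 fold change of 0.45 (standard error 0.28, adjusted p = 0.904 in edgeR). Number 1 gave 0.80 and number 2 gave 0.16, and the fitted value ran from 0.20 (without WT replicate 1) to 0.73 (without WT replicate 2). It was among the least abundant members, at 11.3 and 16.9 CPM in WT and 19.8 and 18.8 in KO.

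In the group that severs, caps or bundles filaments, Capg, a macrophage capping protein, had 356 and 327 FPKM in WT and 308 and 303 in KO. Its counts were 24911 and 22789 against 21160 and 24613, with a log2 fold change of -0.31 (standard error 0.20, adjusted p = 0.904 in edgeR), and the genotypes did not overlap in CPM or FPKM. Gsn, encoding the severing protein gelsolin, and Lcp1, encoding the bundling protein L-plastin, overlapped between genotypes, with log2 fold changes of 0.14 and 0.11. Myo1f, a class I myosin of blood cells, had 71.4 and 57.6 FPKM in WT and 91.4 and 57.4 in KO, and Myo1e averaged 43.9.

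At the integrin end, Fermt3, encoding kindlin-3, had the highest mean over the 4 libraries, with 38.9 and 34 FPKM in WT and 49.7 and 35.4 in KO, and Tln1 lay just above it in KO at 51.9 and 35.7. Tln1, encoding talin, which activates integrins and grips actin, had counts of 5454 and 6380 in WT, and of 9892 and 8040 in KO. In CPM these are 336 and 400 against 531 and 408, so the KO libraries lay above, by 0.35 on the log2 scale (standard error 0.26, adjusted p = 0.928 in edgeR). Number 1 gave 0.66 and number 2 gave 0.03, and with a correction for gene length the fitted value was 0.11. Vcl, encoding vinculin, and Pxn, encoding the adhesion scaffold paxillin, had log2 fold changes of 0.18 and -0.10 and overlapped between genotypes.

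The values of KO against WT went with the length of the gene. When the 47 members were ordered by the length implied by count and FPKM, the 16 shortest (1095 to 4190 bases) centred on a median of -0.25 on the log2 scale, with 14 below 0 and 2 above. The 15 in the middle had a median of 0.10, and the 16 longest (7190 to 16344 bases) a median of 0.14, with 12 above 0 and 4 below. The same direction was seen over all tested genes. Those of the short range lay less far below 0 than the short members, with a median of -0.10 (40.3% above 0). Those of the long range had a median of 0.14 (69.9% above 0). Across genes, Pearson's r between log2 length and the log2 fold change was 0.53 (Spearman's coefficient 0.51) for the 47 members and 0.29 (Spearman's coefficient 0.37) for all tested genes, which share the same 4 libraries and are not independent.

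This relation was mostly that of number 1. In number 1 the short members had a median of -0.37 and the long members 0.36, while in number 2 these were -0.18 and -0.00. Over all tested genes of the same ranges, the medians were -0.13 and 0.29 in number 1 and -0.03 and 0.03 in number 2. Of the 12 members that lay below in both KO libraries, all but Arpc5l and Coro1b belonged to the 16 shortest. With a trend of each library with length removed, 13 of 47 members had a log2 fold change above 0 in place of 24, and the median of all tested genes went from 0.04 to -0.06. With this correction the log2 fold changes of Brk1, Cfl1, Tln1 and Dock8 shrank to the values given with each gene above. Arpc5 went from -0.61 to -0.56, while Arpc3 (-0.51 to -0.59), Arpc5l (-0.38 to -0.51), Pfn1 (-0.37 to -0.46) and Capg (-0.31 to -0.40) moved further from 0.

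**Figure D3:**
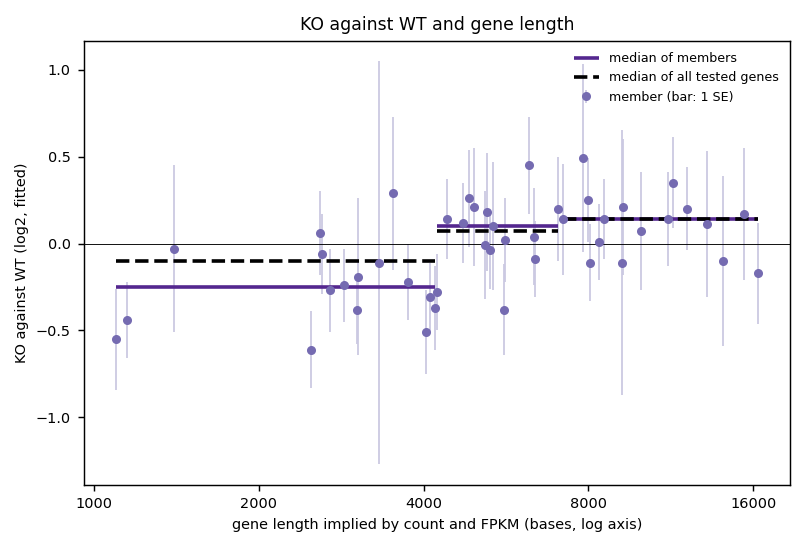
Fitted log2 fold change of KO against WT for the 47 members against gene length in bases on a log axis, with bars of 1 SE. The purple lines are the medians of the members by length range (-0.25, 0.10 and 0.14), and the dashed black lines those of all tested genes of the same ranges (-0.10, 0.07 and 0.14).

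Larger differences separated library 2 from library 1 within a genotype. In 31 of the 47 members (66%) number 2 differed from number 1 in the same direction in WT and KO, against 64.9% of all tested genes, and 20 of the 31 were higher in number 2. In 26 members (55.3%) the mean difference between numbers was larger than that between genotypes, against 48.8% of all tested genes. Pearson's r between the difference in WT and that in KO was 0.84 (Spearman's coefficient 0.67) over the 47 members and 0.69 (Spearman's coefficient 0.50) over all tested genes, again across genes of the same 4 libraries. What the numbers stand for is not given in the labels, so these values are a description and were not tested. Macrophage markers differed between the numbers as well. Cd14 had 125 and 683 CPM in WT and 106 and 533 in KO, Adgre1 had 364 and 816 against 368 and 677, and Fcgr1 went the other way with 55.7 and 21.2 against 46.6 and 17.7, while Cd68 stayed level. Itgam had 2 rows whose log2 fold changes of KO against WT went in opposite directions, 0.82 and -1.11. The first row had 181 and 124 CPM in WT and 310 and 227 in KO. The second had 108 and 261 against 52.6 and 118. The part of these markers in the values of the members was not tested.

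Vasp differed most, with counts of 707 and 5408 in WT, and of 948 and 5986 in KO. Number 2 was 7.78-fold above number 1 in WT and 5.98-fold above it in KO, so the level of this elongation factor was set apart by number and not by genotype. The gene (ENSMUSG00000030403) lies at chr7:19256929-19271817 on the minus strand. Vav3 followed with counts of 690 and 2648 in WT, and of 969 and 2784 in KO, or 3.9-fold and 2.72-fold above. The 2 genes were the members at least 2-fold higher in number 2 in both genotypes (4.26%), against 4.36% of all tested genes. No member was at least 2-fold lower in both, against 2.42% of all tested genes.

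Below that limit, Rhog had 106 and 218 CPM in WT and 109 and 209 in KO, and Rac2 had 219 and 367 against 169 and 343. Lcp1 had 1420 and 2930 CPM in WT and 1810 and 2890 in KO. Of the 10 members with the largest difference between numbers shared by WT and KO, these 3 were higher in both libraries numbered 2. So were Vasp, Vav3, Vav1, Ezr and Pxn, each above either library numbered 1. Dock8 went the other way at 32.2 and 16.6 CPM in WT and 49.1 and 19.6 in KO, and so did Elmo2. The plot of the 10 members shows the libraries sorted by number in every column, which follows largely from choosing them by this difference. Further members outside the 10 were also sorted by number. Among them, Cyfip1 was higher in number 2 (193 and 366 CPM in WT, 266 and 363 in KO). Wipf1 was lower in number 2 (42.6 and 29.8 CPM in WT, 55 and 28.9 in KO).

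**Figure D4:**
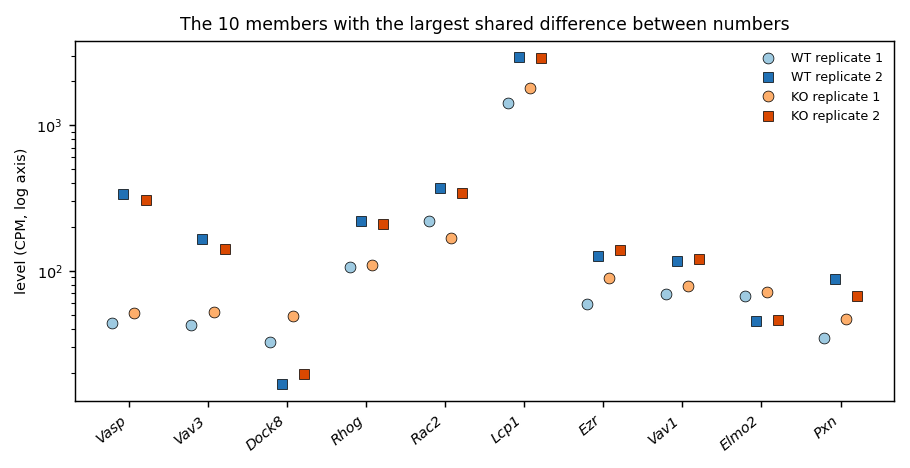
Level in TMM-scaled CPM on a log axis of the 10 members with the largest difference between numbers shared by WT and KO, a column of 4 libraries per gene. Squares (number 2) lie above circles (number 1) in 8 columns and below them for Dock8 and Elmo2, and blue (WT) and orange (KO) overlap.

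Close relatives changed their balance between numbers too. Of the summed FPKM of Vasp and Evl, Evl made up 80.3% and 31.9% in WT and 75.1% and 29.2% in KO, so the more abundant of the pair was Evl in both libraries numbered 1 and Vasp in both numbered 2. Rac2 made up 53.5% and 67.3% of Rac1 plus Rac2 in WT and 48.6% and 67.1% in KO. Vav3 made up 26.3% and 45.4% of Vav1 plus Vav3 in WT and 27.9% and 40.7% in KO. The other shares moved by fewer percentage points across the 4 libraries. Arpc1b held between 83.8% and 85.9% of the ARPC1 pair, Arpc5l between 4.04% and 6.28% of the ARPC5 pair, Msn between 76.9% and 79.8% of the ERM genes, Was between 90.2% and 94.2% of Was plus Wasl, and Myo1f between 58.2% and 63.2% of the class I myosins. None of the 8 shares separated the genotypes (two-sided exact permutation p of 0.667 or 1, adjusted 0.889 or 1). With 2 libraries against 2 this test cannot go below 0.333.

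The promoters of the members were searched for 4 short motifs, since PU.1 and serum response factor are well-known regulators of macrophage and of actin genes. RefSeq promoters (GRCm38.p6, from 250 bases before to 50 bases after the start) were found for 40 of the members, and both strands were read. These members had 54 promoters. The CArG box, bound by serum response factor, was in 3 of the 54 and in 1.63% of all 32851 promoters of the same length. The PU.1 motif GAGGAAGT was in 4 of the 54 and in 3.2% of all, the ETS motif CCGGAAG in 13 and in 8.86% of all, and the GC box GGGCGG in 33 and in 35.7% of all. The PU.1 and ETS motifs share the letters GGAAG but not those before them, so a single stretch cannot count for both on the same strand. The stretches around the PU.1 motif are shown because Rhog and Vav1 are members that differed between numbers and Fmnl1 a member that lay higher in both KO libraries. Those around the CArG box are shown because this motif is the one tied to actin genes. Capitals mark the motif, and for Fmnl1 and Rhog its reverse complement.
Rhog, chr7:102250116-102250143, minus strand: ccacccccccACTTCCTCcggcctccag
Vav1, chr17:57279079-57279106, plus strand: agtcacagaaGAGGAAGTggtgttgtag
Fmnl1, chr11:103171078-103171105, plus strand: ctgcaaccctACTTCCTCcccgagcctc
Arpc1b, chr5:145114248-145114275, plus strand: ccccgcccacGAGGAAGTggctgcggcg
Myo1e, chr9:70207308-70207337, plus strand: gctgaattctCCATTTATGGacagattgcc
Vcl, chr14:20929161-20929190, plus strand: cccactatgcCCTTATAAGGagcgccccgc
Arpc4, chr6:113377863-113377882, plus strand: CCTAATTTGGtgcccaacct
The 3 members with a CArG box had log2 fold changes of 0.21 (Myo1e), 0.18 (Vcl) and -0.04 (Arpc4), and those with the PU.1 motif had -0.03 (Rhog), 0.10 (Vav1), 0.45 (Fmnl1) and -0.11 (Arpc1b). A match of letters is a description of the sequence and was not tied to binding by any measurement.

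Other genes of the same pathway were looked at in 2 further lists. Of 45 other actin genes (actins, thymosins, tropomyosins, capping proteins, filamins and the like), 42 were tested, none was called, 3 had an unadjusted p under 0.05 with a higher level in KO and 2 with a lower level (edgeR, against 4.64% and 1.99% of all tested genes), and the median log2 fold change was 0.01. The DESeq2 Wald test and the edgeR exact test each called 1 of them, Tpm3. Tpm3, a tropomyosin that coats filaments, was the furthest out, at 67.5 and 119 CPM in WT and 335 and 402 in KO, a log2 fold change of 1.98 (standard error 0.36, adjusted p = 0.262 in edgeR). Of the other genes for nucleation, GTPase and kinase signalling, 77 were tested, none was called, 7 had an unadjusted p under 0.05 with a higher level in KO and 0 with a lower one (4.64% and 1.99% of all tested genes), and 53 of the 77 were above 0 with a median of 0.19. Those other tests each called 1 of them, Fermt2. Fermt2, the kindlin of adherent non-blood cells, had 2.03 and 2.51 CPM in WT and 9.39 and 8.48 in KO (log2 fold change 1.97, standard error 0.31, adjusted p = 0.25 in edgeR). Nckap1, the broadly expressed relative of Nckap1l, had 3.7 and 6.21 CPM against 13.2 and 11.4. These 3 genes were chosen after their values were seen. In each, the KO libraries were the upper pair, which was so for 20% of all tested genes. The stromal marker sum, given above, lay in the same order, and its part in these values was not tested.

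The second list also held genes that went with the number. Among its 77 tested genes, Fgr, Syk, Src, Lyn, Nck1, Dock10 and Fam49a were at least 2-fold higher in number 2 in both genotypes, and Rhov and Lpxn were at least 2-fold lower. Syk, which binds activated Fc receptors, had 246 and 863 CPM in WT and 303 and 802 in KO, so it too was set apart by number. Syk and Vasp lay on the same diagonal in the plot of library differences.

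**Figure D5:**
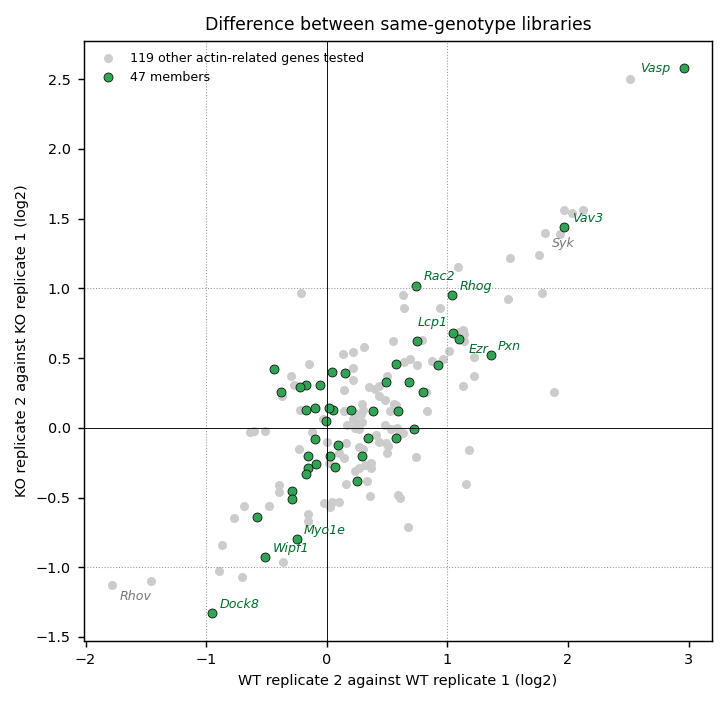
Log2 difference between libraries 2 and 1 in WT (horizontal) and in KO (vertical), with the 47 members in green and 119 other actin-related genes in grey. Dotted lines mark a 2-fold difference, and Vasp (2.96 in WT and 2.58 in KO) lies furthest from the centre, on the diagonal.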

How the data were processed

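RNA of macrophages grown in culture was sequenced on an Illumina instrument. Per the submitters' processing notes and the study's methods, the authors filtered reads with Seqtk, aligned them with HISAT2 2.0.4 and counted fragments per gene with StringTie 1.3.3b, and they deposited raw counts with FPKM values beside them. The deposited FPKM were scaled by gene length and library total alone. The processing notes name mm39, but 36 of the 47 members had the same start and end as in GENCODE M21, so positions are given on GRCm38.

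The count test ran in edgeR 4.0.16 (R 4.3.3) on genes that passed filterByExpr (a minimum count of 10 and a total of at least 15), with TMM scaling and genotype as the only term. The two-sided quasi-likelihood test (glmQLFTest) was adjusted by Benjamini-Hochberg. Calls needed an adjusted p under 0.05 and more than 1 log2 unit in either direction, and intervals are 95%. Log2 ratios between single libraries had 0.5 counts added. No library was a copy of another, as chi-square over degrees of freedom was 22.7 to 125 for each pair. Floors (3 counts) cover counting error only. For 7 members another gene on the opposite strand held at least 5% of their counts (Arpc1b, Arpc5l, Cyfip1, Rac1, Coro1a, Tln1 and Vcl), and strand use in counting is not given in the sources used here.

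Full statistics are given for the 12 members with the largest absolute log2 fold change and any with an unadjusted p under 0.05, and FPKM for the highest member of each of 11 roles and all Arp2/3 genes. Members, roles and lists (2 of actin-related genes and 8 of cell type markers) were chosen with earlier results of these data known. Alternatives were DESeq2 size factors, no filter, the Wald test of DESeq2 1.42.0, edgeR's exact test, the number as a term, a loess correction for gene length (span 0.5), no minimum fold change and each library left out. The code was tested on simulated data.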

Additional observations from a re-analysis of the deposited data

How the results depend on the processing

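No member was called in any alternative, and Arpc5 had the smallest adjusted p of the members with the replicate block (0.0891). Over all tested genes, the DESeq2 Wald test called 170, the edgeR exact test 174, the fit with the replicate block 664 and that block with a gene length correction 408, while leaving out a library called 0 to 1. Leaving out a library leaves 1 sample in a group, which is assumed to vary like the other group. Members at an unadjusted p under 0.05 numbered 0 in the exact test, 4 with the replicate block (Arpc3, Arpc5, Brk1 and Fmnl1), 2 with the length correction, 8 with both (against 18.3%, 6.67% and 18.4% of all tested genes in those 3 fits), and 0 (lowest 0, highest 0) with any library left out. The count of members above 0 was 13 with the length correction, 14 with both, and 13 to 26 with a library left out. The median of the members was -0.161 to 0.055 with a library left out, the lowest without WT replicate 1. Of 132 alternative values for the 12 members with full statistics, 129 kept their direction and 3 did not. In size, the length correction brought Brk1 from -0.55 to -0.23, Cfl1 from -0.44 to -0.15, Tln1 from 0.35 to 0.11 and Dock8 from 0.49 to 0.29. Ezr was -0.16 without WT replicate 1 and -0.07 without KO replicate 2 (range -0.16 to 0.91), and Dock8 was -0.32 without KO replicate 1 (range -0.32 to 1.05). With a library left out, Brk1 ranged from -0.79 to -0.32, Arpc5l from -0.59 to -0.17, Cfl1 from -0.66 to -0.25, Pfn1 from -0.59 to -0.19, Tln1 from 0.15 to 0.52 and Fmnl1 from 0.20 to 0.73. The cause of these changes was not tested. Libraries of the same number deviated together from the means of their genotypes, with correlations of 0.692 over the tested genes and 0.84 over the members, but there are 2 pairs and the labels do not say what a number marks. With the replicate block, the calls in the further lists were Fscn1, Tpm2 and Tpm3 among the other actin genes and Bcar1, Dock9, Enah, Fermt2 and Nckap1 among the other nucleation and signalling genes, all higher in KO. The member with the fewest counts, Wasl, had 139 to 245 in a library, and the precision of all members rests on 2 libraries per genotype.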

Other observations

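The actin monomers and their main buffer were more abundant than most of the 47 genes and were named after their values were seen. Actb had 1410 and 1990 CPM in WT and 1400 and 1810 in KO, and Actg1 had 500 and 844 against 574 and 781, so both overlapped between genotypes. Tmsb4x, which holds actin monomers in reserve, had 4520 and 3900 CPM in WT and 1890 and 3710 in KO, and the low library was KO replicate 1. Its relative Tmsb10 had 1290 and 997 CPM against 567 and 663, a log2 fold change of -0.89 (standard error 0.24, adjusted p = 0.451 in edgeR). Tpm2, a tropomyosin typical of muscle and stromal cells, had 2.53 and 2.95 CPM in WT and 5.8 and 6.05 in KO (log2 fold change 1.11, standard error 0.31, adjusted p = 0.452 in edgeR).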
